A study of Mus musculus with 3 samples.

Results

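Innate CD8+ T cells of naive mice were split by the chemokine receptor CXCR3 and profiled on 1 array per side. The comparison uses 2 of the 3 arrays of the study, CXCR3+ innate CD8+ T cells and CXCR3- innate CD8+ T cells, and takes the log2 value of the first minus that of the second for 10191 genes named by a single symbol. Genes were singled out when these values lay at least 1.5-fold apart, which is 0.585 on the log2 scale, and this held for 120 genes. Small RNA genes and genes of cytosolic ribosomal proteins were kept apart from the rest.

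All animals were C57BL/6 CXCR3-GFP reporter mice (CIBER mice in the labels), described as naive and kept free of pathogens. Cells from spleen and lymph nodes were stained for CD44, CD62L and CD8 and sorted. The third array held naive CD8+ T cells from the same kind of mice and is used here only as a point of reference. The labels give about 3 to 5 mice as the source of the RNA and do not say how these animals were divided among the arrays. They give no age and no bounds of the sort gates. How the reporter is driven is not given in the sources used here.

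CXCR3 guides T cells along gradients of chemokines that are induced by interferon gamma. In mice that never met a foreign antigen, some CD8+ T cells carry a memory-like surface and answer quickly to interleukin-12, interleukin-15 and interleukin-18, and the transcription factors T-bet and Eomes shape this state. Such cells are also known for chemokine release and for receptors shared with natural killer cells.

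The sort genes were read first. Cxcr3 stood at 7.97 on the CXCR3+ innate array, 7.82 on the CXCR3- innate array and 7.57 on the naive array, in the order of the labels, and the innate arrays were 1.11-fold apart. This difference of 0.15 lay within the middle 90% of all differences, from -0.16 to 0.29. The order of these single values therefore does not tell the sorted populations apart. Cd44, which encodes the adhesion receptor of memory-phenotype cells, stood at 8.30, 7.88 and 7.24. The CD8 chains Cd8a (10.14 and 9.77 on the innate arrays) and Cd8b1 (11.31 and 11.29) were within 1.5-fold, and the difference of Cd8b1, 0.02, turned to -0.07 after quantile normalization or cyclic loess. Of 11 defining genes of CD8 T cells 9 had values, none of them 1.5-fold apart between the innate arrays, with linear values that summed to 1.102e+04 in CXCR3+, 9916 in CXCR3- and 1.301e+04 in naive cells. Defining genes of other cells were few among the genes with values, and none was 1.5-fold apart. For B cells 1 of 10 genes was measured, for plasma cells 2 of 5, for CD4+ or regulatory T cells 1 of 6, for natural killer cells 3 of 9 and for gamma-delta T cells 1 of 6. For monocytes, macrophages and neutrophils 5 of 13 genes were measured, for dendritic cells 2 of 10, for erythroid cells and platelets 2 of 7 and for stroma and endothelium 5 of 8. The natural killer cell genes summed to 597 on the linear scale in CXCR3+, 602 in CXCR3- and 489 in naive cells. Among them was Eomes, named above for the innate CD8+ state, at 7.92, 7.77 and 7.06. The myeloid genes summed to 923, 993 and 931, and the stromal and endothelial genes to 839, 917 and 1023. Of these 5 stromal and endothelial genes 4 were equal on the innate arrays, and Pecam1 stood at 7.80, 8.23 and 8.68. The widest myeloid difference was that of S100a9, at 8.04, 8.31 and 8.09. Ncr1, a defining gene of natural killer cells, stood at 7.19 in CXCR3+ and 7.43 in CXCR3- cells. The table keeps no gene that was low on all arrays, so a defining gene without a value was not analysed here. Outside the genes with a single symbol, a probe set shared by immunoglobulin kappa variable segments, which B cells express, stood at 9.02 in CXCR3+, 10.00 in CXCR3- and 9.20 in naive cells, a difference of -0.98 between the innate arrays. The part of other cells in the differences was not tested.

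With 1 array a side there is no spread between replicates, no test and no p-value, and every statement below describes these arrays. Values were equal to the last digit on both innate arrays for 4998 genes, or 49.0%, so a difference of 0 does not show equal expression. Of the rest 2921 genes lay above 0 and 2272 below. The CXCR3- and naive values tied likewise for 4288 genes (42.1%), and the CXCR3+ and naive values for 4587 (45.0%). These ties do not show equal expression either. The middle 90% of all differences lay between -0.16 and 0.29. In sorted bulk RNA, fewer cells with a transcript and less transcript per cell cannot be told apart.

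Of the 10191 genes, 107 were at least 1.5-fold higher in CXCR3+ innate cells (1.05%) and 13 were at least 1.5-fold lower (0.128%). The higher genes fell into 53 protein-coding genes outside the ribosome, 9 ribosomal protein genes, 36 small RNA genes, 2 long non-coding RNAs and 7 pseudogenes. The lower genes were 12 protein-coding genes and 1 microRNA hairpin. At least 2-fold higher were 16 genes (0.157%), 12 of them small RNAs, and 1 gene was at least 2-fold lower (0.00981%). Small RNA genes were a minor part of the table, with 208 of 10191 genes, and 17.3% of them were higher and 0.481% lower. Of the 51 ribosomal protein genes 17.6% were higher, against 0.624% of the 9932 genes in neither class, where 62 were higher and 12 lower (0.121%). The 12 became 7 with a level filter at the array median or a linear offset of 16, and 19 after quantile normalization. Just inside the limit lay Arsb at 0.592, Cd52 at 0.593 and Psenen at 0.597, and just outside it Chsy1 at 0.579, Atp5e at 0.579 and Yes1 at 0.577. On the lower side Cpm at -0.592 and Cnn3 at -0.596 were inside, and Gbp8 at -0.555 and Inpp4b at -0.552 outside.

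**Figure D1:**
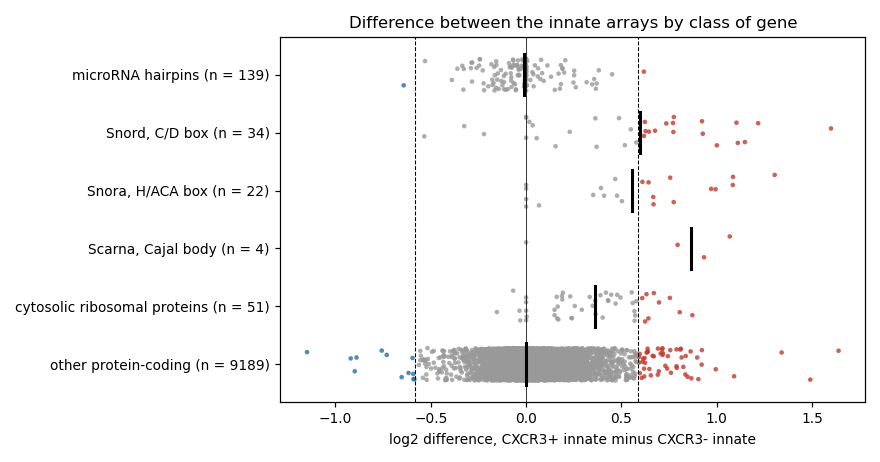
Log2 difference of CXCR3+ innate minus CXCR3- innate for every gene of 6 classes, 1 point per gene, spread vertically for sight only. Black bars mark medians, dashed lines the 1.5-fold limit, red points genes at least 1.5-fold higher and blue points genes at least 1.5-fold lower. Box C/D and box H/ACA small nucleolar RNAs have medians of 0.60 and 0.56, while microRNA hairpins and protein-coding genes lie around 0.

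The sequences that bear on these sets are given here. Many ribosomal protein genes begin with a terminal pyrimidine tract, a C at the transcription start followed by C or T, through which their translation is controlled together. RefSeq start sites of build GRCm38.p6 were matched by symbol for 7 of the 9 ribosomal protein genes that were higher, and the first 30 bases from the start are shown with such a tract of at least 5 bases in capitals.
Rpl14 (chr9:120571517-120571546, plus strand): CTTCTCgctgagcgccgccaacatggtgag
Rpl38 (chr11:114668580-114668609, plus strand): CTTTCCCCgttctcttcggttctcatcgct
Rpl35 (chr2:39005102-39005131, minus strand): CTCTTTCTCTCgaaccaggctgcttcagcc
Rps19 (chr7:24884592-24884621, plus strand): gactcgacgcccgacttgtgcgcccgggaa
Rps7 (chr12:28635924-28635953, minus strand): ccacctacttccgctgtccccacctctttt
Rpsa (chr9:120127766-120127795, plus strand): acgtcatttccggccgcccgtcctttcgcg
Rps12 (chr10:23787180-23787209, minus strand): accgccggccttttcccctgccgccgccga
The tract was found in 3 of these 7 genes, in 7 of the 34 matched ribosomal protein genes within 1.5-fold, and in 3.01% of the 27025 genes of the promoter table. RefSeq starts can lie some bases from the start that is used, so a window without the tract says only that these letters are not at this position.

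Ly6c2 and Klrc1 on the higher side and Ifngr2 on the lower side were the genes furthest apart with an entry in the promoter table, and their 250 bases before the RefSeq start (GRCm38.p6) are shown because T-bet, whose own gene was higher, binds the letters AGGTGT. Matches on either strand (AGGTGT or ACACCT) are in capitals.
Ly6c2 (chr15:75111972-75112221, minus strand): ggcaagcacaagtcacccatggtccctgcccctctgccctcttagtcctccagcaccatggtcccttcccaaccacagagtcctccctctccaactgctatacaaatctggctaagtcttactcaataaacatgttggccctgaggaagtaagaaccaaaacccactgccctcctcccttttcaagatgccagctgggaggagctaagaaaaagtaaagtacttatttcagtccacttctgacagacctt
Klrc1 (chr6:129678974-129679223, minus strand): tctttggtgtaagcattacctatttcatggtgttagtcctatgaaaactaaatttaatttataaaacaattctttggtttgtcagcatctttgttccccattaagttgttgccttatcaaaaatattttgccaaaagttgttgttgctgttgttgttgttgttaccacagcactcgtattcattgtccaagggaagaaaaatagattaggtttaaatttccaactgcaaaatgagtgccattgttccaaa
Ifngr2 (chr16:91546809-91547058, plus strand): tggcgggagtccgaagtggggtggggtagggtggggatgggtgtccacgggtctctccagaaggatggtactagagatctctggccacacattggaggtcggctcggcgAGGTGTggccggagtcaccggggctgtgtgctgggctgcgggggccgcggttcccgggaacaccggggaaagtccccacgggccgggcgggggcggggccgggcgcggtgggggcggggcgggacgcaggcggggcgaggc
Ifngr2 held 1 match, beginning 141 bases before its start, and Ly6c2 and Klrc1 held none in the stretch shown. Ly6c2 has 2 listed starts, and only the first is shown. In the counts that follow, a gene held a match if any of its listed starts did. Of the 45 higher genes outside the small RNA and ribosomal classes with a listed promoter, 4 held a match (8.89%). So did 2 of the 10 lower genes, against 13.6% of the genes of the promoter table.

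A chemokine gene had the largest difference. Ccl5, a chemokine of activated and memory T cells, read 12.49 on the CXCR3+ array, 10.85 on the CXCR3- array and 7.83 on the naive array. It was 3.12-fold higher, the largest difference of all 10191 genes, and the CXCR3- array lay nearer to the CXCR3+ array than to the naive array. Xcl1, which attracts cross-presenting dendritic cells, stood at 8.92, 8.18 and 7.58 and was 1.67-fold higher. Of 6 measured chemokine genes 2 were higher (33.3%) and none lower, against 1.05% higher and 0.128% lower over all genes. Their median difference was 0.17 against 0.00 over all genes. Ccl4 (0.27) and Ccl3 (0.08), inflammatory chemokines of the same list, were within 1.5-fold.

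Of 34 listed receptors shared with natural killer cells only 10 had values. Of these 10 genes 4 were higher (40%) and none lower, against 1.05% and 0.128% of all genes. Their median difference was 0.46. Klrc1, encoding the inhibitory receptor NKG2A, stood at 9.03 in CXCR3+, 7.69 in CXCR3- and 7.12 in naive cells, 2.53-fold apart between the innate arrays. Hcst, the adaptor DAP10 that carries the signal of NKG2D, stood at 8.13, 7.27 and 7.69. Slamf7, a self-binding receptor of the SLAM family, stood at 8.84, 8.17 and 7.35. The CXCR3+ array was highest for each of these genes, and the naive value of Hcst alone lay above the CXCR3- value. Klra9, a Ly49 receptor from a family of near-identical copies and so uncertain, was 1.76-fold higher at a low value of 7.09. At 6.28 in CXCR3- and 6.05 in naive cells, Klra9 had values here only through the CXCR3+ array. Its difference therefore carries no weight, although it is counted among the 4 higher genes. Receptors low on every array have no value, so the share of 40% describes the measured genes only. Nkg7, a granule membrane protein, was 1.48-fold higher and Klrd1, the partner chain of NKG2A, was 1.28-fold higher, both within the limit.

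Cytokine receptor chains split in direction, with 3 higher and 1 lower of 24 measured and a median of 0.04. Over all genes 1.05% were higher and 0.128% lower. Il2rb, the chain through which interleukin-15 and interleukin-2 signal, stood at 10.85 in CXCR3+ cells, 9.86 in CXCR3- cells and 9.85 in naive cells. CXCR3- and naive values were therefore almost the same, and only the CXCR3+ array stood apart, by 1.99-fold. Both chains of the interleukin-18 receptor were higher, Il18rap at 8.20 against 7.28 (1.90-fold) and Il18r1 at 8.52 against 7.83 (1.62-fold). Naive values were 6.88 for Il18rap and 7.86 for Il18r1, so the chains differed in where the naive array lay.

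Ifngr2, the signalling chain of the interferon gamma receptor, ran the other way, at 7.76 in CXCR3+ cells, 8.91 in CXCR3- cells and 9.92 in naive cells. It was 2.22-fold lower in CXCR3+ cells, the only gene at least 2-fold lower, while the ligand-binding chain Ifngr1 stood at 10.95 and 10.91. Il12rb2, the inducible chain of the interleukin-12 receptor, differed by 0.22 and Il7r, the receptor of the survival cytokine interleukin-7, by 0.40. No measured gene of 16 in the JAK-STAT and SOCS list, which carry these signals and restrain them, was 1.5-fold apart. The list median was 0.0049. With 1.05% of all genes higher and 0.128% lower, a list this small may well hold none, so the count says little. Stat4, which acts below interleukin-12, differed by 0.24 and the phosphatase gene Ptpn6 by 0.33.

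Genes of killing were higher in 3 of 21 measured members (14.3%, against 1.05% of all genes), lower in none, with a median of 0.15. Ctsw, encoding cathepsin W of cytotoxic lymphocytes, stood at 10.80 in CXCR3+, 9.71 in CXCR3- and 10.16 in naive cells. Cst7, encoding cystatin F, an inhibitor that tunes granule proteases, stood at 8.998, 8.28 and 8.62. For both of these genes the CXCR3- array was the lowest of the 3. Fasl, the death ligand, stood at 8.10, 7.48 and 7.18 in the same order, with naive cells lowest. The killing molecules proper were closer: Prf1 (perforin) differed by 0.12, Gzmb by 0.16 and Gzmm by 0.19, and Gzmk read 7.48 on both arrays. Ctla2a, which encodes an inhibitor related to the propeptides of cathepsins and is in no list, was 1.87-fold higher, with equal values of 6.90 in CXCR3- and naive cells. At 7.80 in CXCR3+ cells, it was listed only through that array. Its difference therefore carries no weight, and the tie does not show equal expression.

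Among surface and adhesion genes of memory-phenotype cells 2 were higher and 1 lower of 17 measured, with a median of 0.06. Shares over all genes were 1.05% higher and 0.128% lower. Ly6c2, the Ly6C antigen, stood at 11.87 in CXCR3+, 10.38 in CXCR3- and 9.28 in naive cells, 2.81-fold apart between the innate arrays. Its neighbour Ly6c1 is very similar in sequence, and how the probes tell them apart is not given in the sources used here. Itgb1, the integrin beta 1 chain, stood at 7.84, 7.23 and 7.16. Itgae, encoding the CD103 integrin chain that holds T cells to epithelium, was 1.85-fold lower at 7.15, 8.04 and 9.07, so the order of the arrays was the reverse of that for Ly6c2. Other integrin chains on the lower side were within the limit, with Itga4 at -0.34 and Itgb7, the partner of CD103, at -0.26.

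Of 26 measured effector and memory transcription factors 1 was higher (3.85%, against 1.05% of all genes), none was lower, and the median was 0.00. Tbx21, encoding T-bet, stood at 8.68 in CXCR3+, 7.98 in CXCR3- and 7.37 in naive cells, 1.62-fold apart between the innate arrays. Bhlhe40, a factor needed for cytokine output, was 1.48-fold higher, just within the limit. Eomes, the relative of T-bet, differed by 0.14 and Id2 by 0.04, although both lay far from their naive values (7.06 for Eomes and 9.99 for Id2). The averaged value of Myb, a factor of stem-like T cells, was -0.49, but its probe sets did not move together: 1 stood at 8.93 in CXCR3+ and 9.91 in CXCR3- cells, a difference of -0.99, and the other read 7.20 on all arrays.

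**Figure D2:**
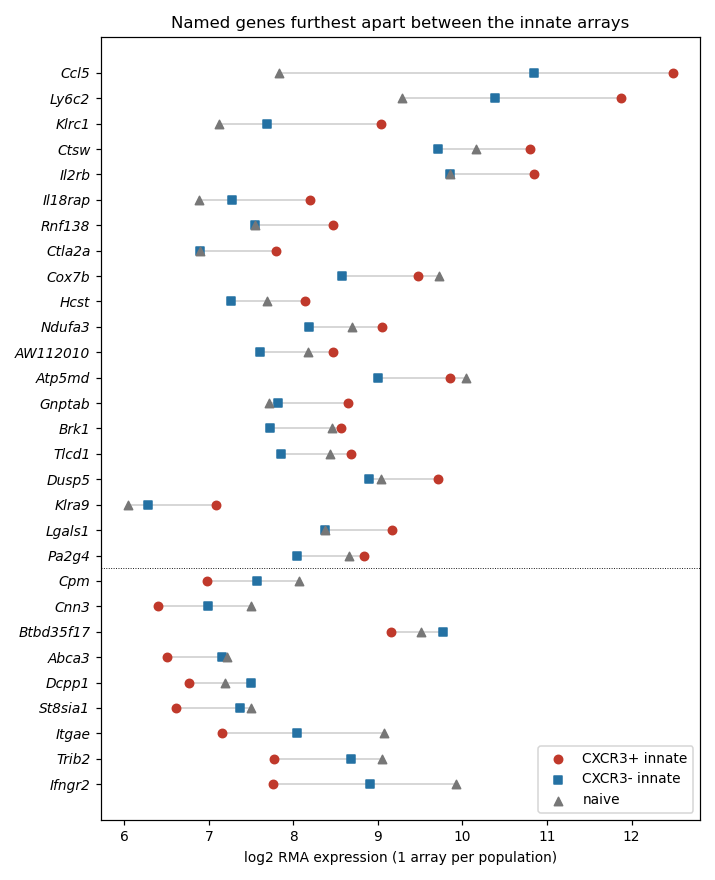
Log2 expression on the 3 arrays (red circles CXCR3+ innate, blue squares CXCR3- innate, grey triangles naive) of the 20 named genes furthest higher and the 9 named genes furthest lower in CXCR3+ innate cells, outside the small RNA and ribosomal classes. Grey lines span the 3 values and the dotted line parts higher from lower genes. Ccl5 spans 7.83 to 12.49, and Il2rb has CXCR3- and naive values of 9.86 and 9.85.

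Naive-state genes ran lower, with 3 of 26 measured members lower, none higher, and a median of -0.22. Over all genes 0.128% were lower and 1.05% higher. Trib2, a pseudokinase, stood at 7.77 in CXCR3+, 8.69 in CXCR3- and 9.04 in naive cells, and Cpm, a surface carboxypeptidase, at 6.97, 7.57 and 8.06. The third lower member was Itgae, described above. Differences below 0 were seen for 18 of these 26 members, against 2272 of all 10191 genes. Among them were the lymph node homing receptor Ccr7 (-0.37), the exit receptor S1pr1 (-0.26) and Bach2 (-0.31), a repressor of effector genes. Lef1 differed by only -0.04, and Il7r and Npc2 lay above 0 at 0.40 and 0.39. This list was chosen with results of these arrays known, so its direction is not independent evidence.

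The remaining lower genes were less characteristic of T cells. St8sia1, a sialyltransferase of ganglioside synthesis, stood at 6.61 against 7.36, Abca3, a lipid transporter, at 6.502 against 7.15, and Cnn3, an actin-binding calponin, at 6.39 against 6.99. Dcpp1 and Btbd35f17 differed by -0.73 and -0.62, and a predicted gene and a pair of vomeronasal receptor genes made up the rest. For scale, of 541 olfactory and vomeronasal receptor genes with values, a family of sensory neurons, 1 was higher and 2 were lower, and the whole family ran from -0.59 to 0.69. Of the 12 lower protein-coding genes 10 lay beyond the lower end, Cpm and Cnn3 only just. That end was Vmn1r14, itself 1 of the 12 and just past the 1.5-fold limit. The count of 10 was therefore nearly fixed by the limit and gives no scale for these genes. Of the higher genes, 19 of the 53 protein-coding genes, among them Plek, Slamf7, Fasl and Itgb1, lay within the upper end, as did 5 of the 9 ribosomal protein genes and 11 of the 36 small RNAs.

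Signalling by the T cell receptor showed no gene 1.5-fold apart among 40 measured, with a median of 0.0018. Nearest to the limit were Cd3g (0.55) and Cd3d (0.53), chains of the CD3 complex, while Cd3e differed by -0.06. Costimulatory and checkpoint receptors had no member past the limit among 21. Over all genes 1.05% were higher and 0.128% lower, so lists of these sizes may well hold none, and both counts say little. The lowest were Ctla4 and the adhesion receptor Cd226, both at -0.53. Slamf6 averaged -0.34 from a probe set at -0.67 and another that read 7.15 on all arrays.

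Chemoattractant receptors had no member past the limit among 13 and a median of 0.00. Cxcr4, which retains cells in bone marrow, was nearest, at 10.26 in CXCR3+, 9.71 in CXCR3- and 9.92 in naive cells. Of 30 immediate early and stress genes only Dusp5, a phosphatase of the kinase ERK, was higher, at 9.71 against 8.89, and the median was 0.13. Mif, a cytokine made by many cells, was the only higher gene of 6 measured effector cytokines, at 8.58 against 7.89. No member passed among 26 interferon-stimulated, 22 cell cycle, 13 survival and apoptosis, 15 glycolysis and 7 Gimap genes. Their medians were 0.00, 0.00, 0.00, 0.04 and 0.06 in that order. With 1.05% of all genes higher and 0.128% lower, lists of these sizes may well hold none. These counts, and that of the chemoattractant receptors, therefore say little. Among the interferon-stimulated genes 11 lay below 0 and 7 above, from Gbp8 at -0.56 to Psmb9 at 0.33. The highest cell cycle gene was Ccnd2, a cyclin of early G1 phase, at 0.44.

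**Figure D3:**
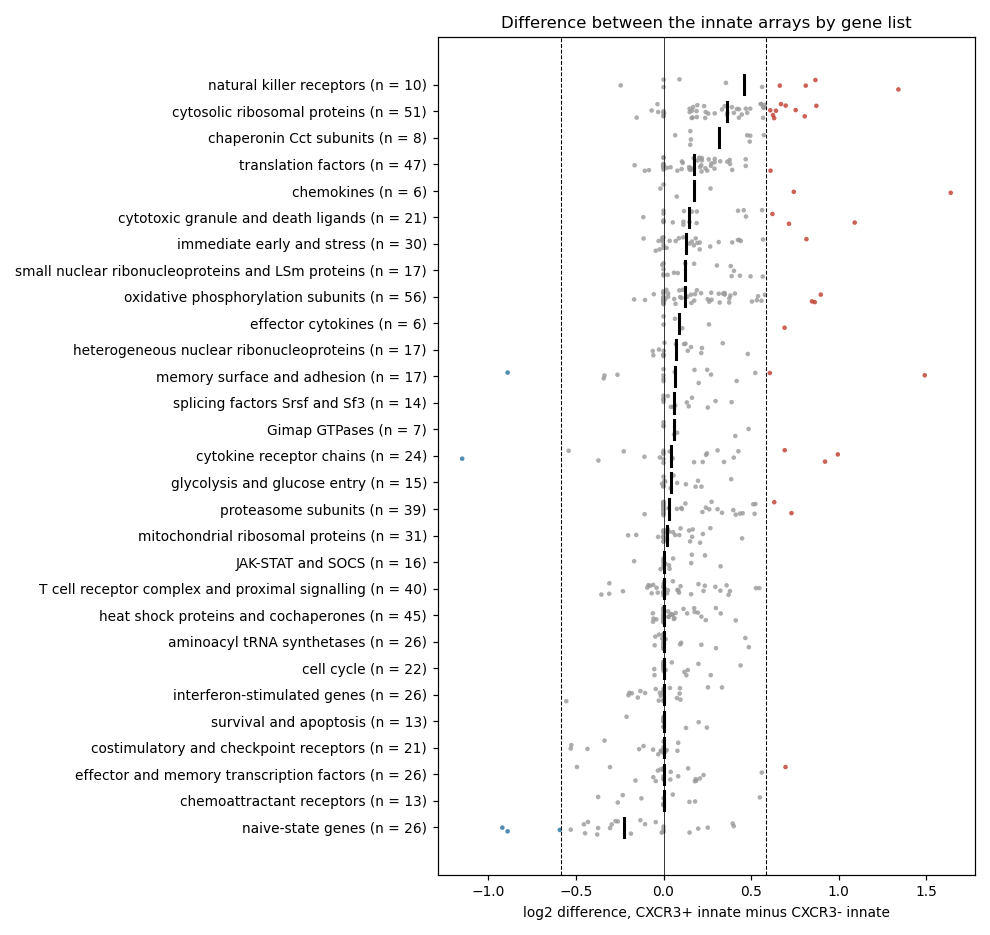
Log2 difference of CXCR3+ innate minus CXCR3- innate for the measured members of 18 T cell lists and 11 families, 1 point per gene, ordered by the median (black bar). Dashed lines mark the 1.5-fold limit and red and blue points lie beyond it. Natural killer receptors have the highest median, 0.46, and naive-state genes the lowest, -0.22.

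The other protein-coding genes that were higher were in no list, and those outside the 20 furthest apart are named after their values were seen. Several are known in activated lymphocytes. Plek, a substrate of protein kinase C, stood at 9.02 in CXCR3+, 8.35 in CXCR3- and 7.85 in naive cells, and Lilrb4a, an inhibitory receptor of the immunoglobulin superfamily, at 8.48, 7.76 and 7.44. Lgals1 (galectin-1) stood at 9.17, 8.38 and 8.37. F2r, the thrombin receptor, Cd7, S100a10, the partner of annexin A2, and Crip1 differed by 0.79, 0.71, 0.72 and 0.76. Nod1, an innate sensor, and Myo1f, a myosin of leukocytes, had CXCR3- and naive values that were equal to the last digit, 7.54 for Nod1 and 7.50 for Myo1f, beside 8.30 and 8.24 in CXCR3+ cells. Such ties were frequent over all genes and do not show equal expression. Rnf138, a ubiquitin ligase, stood at 8.47, 7.55 and 7.55, with CXCR3- and naive values 0.0032 apart.

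Gnptab, which marks lysosomal enzymes for delivery, stood at 8.65 in CXCR3+, 7.81 in CXCR3- and 7.71 in naive cells, and Arsb, a lysosomal sulfatase, at 8.64, 8.05 and 8.05. Brk1, a small subunit of the actin-regulating WAVE complex, stood at 8.56, 7.72 and 8.46, and Pa2g4, a proliferation-associated nucleolar protein, at 8.83, 8.04 and 8.66. For the first pair the naive value lay with the CXCR3- array, and for the second with the CXCR3+ array. Txn1, thioredoxin, had CXCR3+ and naive values that were both 8.32 beside 7.67 in CXCR3- cells. The ties of Arsb and Txn1 with the naive array do not show equal expression. Tlcd1 (0.83), Dpep2 (0.71), Cdv3 (0.64), Med10 of the Mediator complex (0.64), Dap (0.64), Gstp1, a glutathione transferase (0.62), Nudt4 (0.62), Mrfap1 (0.62), Selenof (0.61), Nop10 of box H/ACA particles (0.60) and a pair of genes known by clone names completed the protein-coding set. The 2 long non-coding RNAs were AW112010, at 8.46 in CXCR3+, 7.60 in CXCR3- and 8.17 in naive cells, and Zfas1, at 7.80, 7.17 and 8.21.

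Families of general cell machinery other than cytosolic ribosomal proteins held 6 higher genes. Cox7b of cytochrome c oxidase (0.90), Ndufa3 of complex I (0.86) and Atp5md of ATP synthase (0.85) were the 3 higher genes of 56 oxidative phosphorylation subunits, whose median was 0.12. Psmb5, a catalytic subunit of the constitutive proteasome, and Psmb10, a catalytic subunit of the immunoproteasome, were the 2 higher of 39 proteasome genes, at 0.73 and 0.63 with a family median of 0.03. The other immunoproteasome subunits, Psmb8 (0.00) and Psmb9 (0.33), were within the limit. Eef1b2, an elongation factor subunit, was the only higher gene of 47 translation factors, at 0.61, yet 34 of them were above 0 and the median was 0.17. Over all 10191 genes 1.05% were higher, 2921 lay above 0 and the median was 0.00. All 8 measured chaperonin subunits, which fold actin and tubulin, lay above 0 with a median of 0.32, none past the limit. Aminoacyl tRNA synthetases (26 genes) and heat shock proteins and cochaperones (45 genes) had medians of 0.00, and mitochondrial ribosomal proteins (31 genes) of 0.02.

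Cytosolic ribosomal proteins build both subunits of the ribosome. Of 51 measured genes 43 lay above 0, 4 were equal and 4 lay below, with a median of 0.36. Over all 10191 genes 2921 lay above 0, 4998 were equal and 2272 lay below. Apart from Rps18, the equal and lower genes read below the array medians on both innate arrays. Probe sets that Rpl37a shares with Mir682 (0.72) and Rps27 with Rps27rt (0.62), left out of these counts, were higher. Their single-symbol values were equal for Rpl37a and -0.03 for Rps27. The equal and lower counts therefore do not show that these genes were unchanged. Rpl14 was furthest above 0, at 9.22 in CXCR3+, 8.34 in CXCR3- and 9.26 in naive cells. Rpl38 stood at 11.10, 10.29 and 11.04, and Rps19 at 10.24, 9.48 and 10.51. For each of them the CXCR3- array alone was low, and the naive array was at or above the CXCR3+ array for Rpl14 and Rps19. The other higher members were Rpl32, Rps7, Rpsa, Rpl8, Rpl35 and Rps12, from 0.70 down to 0.61. Ribosomal protein genes have many processed copies in the genome, so a single gene is uncertain; 6 of the 8 probe sets of Rps12 carried identical values. After quantile normalization of the 3 arrays 4 of the 51 genes were higher in place of 9.

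Small nucleolar RNAs guide the chemical modification of ribosomal RNA, box C/D members for methylation and box H/ACA members for pseudouridine, and small Cajal body RNAs do so for spliceosomal RNAs. Of 34 box C/D genes 17 were higher and none lower, with a median of 0.60, and of 22 box H/ACA genes 11 were higher and none lower, with a median of 0.56. Snord35a was furthest, at 10.77 in CXCR3+, 9.17 in CXCR3- and 10.18 in naive cells. Snora33 stood at 8.26, 6.96 and 7.80, and Snord110 at 7.51, 6.30 and 7.29. The CXCR3- array was the lowest for these 3 genes. AF357355, a small nucleolar RNA known by its clone name, differed by 1.22, Snord49b by 1.15, Snord69 by 1.11 and Snord89 by 1.10. Of 4 Cajal body RNAs 3 were higher, Scarna2, Scarna6 and Scarna17, while Scarna8 read 8.11 on all arrays.

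Other small RNAs with their own promoters were among the higher genes. Rnu12, the U12 RNA of the minor spliceosome, stood at 10.59 in CXCR3+, 9.20 in CXCR3- and 10.81 in naive cells, and Terc, the telomerase RNA, at 11.15, 10.30 and 11.52. Rnu3a, a U3 RNA of ribosomal RNA processing, stood at 9.03, 8.43 and 9.47. In contrast Rnu11, which acts beside U12, differed by 0.14, Rn7sk, which restrains transcription elongation, by -0.12 and Rpph1, the RNase P RNA, by 0.07. The small RNA difference was therefore not shared by all abundant non-coding RNAs.

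Most small nucleolar RNAs are cut out of introns of host transcripts. By RefSeq coordinates, 59 of the 69 small RNAs other than microRNAs lay inside the span of a protein-coding or long non-coding gene, and for 42 of them such a gene had a value. Strand was not compared. The median difference was 0.61 over these 42 small RNAs and 0.22 over their 34 spanning genes, and 33 small RNAs had the larger difference of the pair. Snora33 (1.30) lies in Rps12 (0.61), Snora7a (0.77) in Rpl32 (0.70) and Snord110 (1.22) in Nop56 (0.31), a core protein of box C/D particles. Snora69 (1.08) lies in Rpl39 and Scarna6 (0.93) in Atg16l1, and both spanning genes read equal on the innate arrays. Rpl39 read 7.36 and Atg16l1 7.56 there, below the array medians. Equal values at these levels do not show that the spanning gene was unchanged. Small RNAs of a single spanning gene also differed among themselves: within Snhg12 (0.06) the values were 0.76 for Snora16a, 0.62 for Snord99, 0.35 for Snora44 and 0.07 for Snora61. Snhg12 itself read 6.95 in CXCR3+ and 6.89 in CXCR3- cells, so its small difference has the same limit. Dim spanning genes such as these also enter the medians and the count of 33 above. Snora41 went the other way, equal on the innate arrays inside Eef1b2 (0.61).

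**Figure D4:**
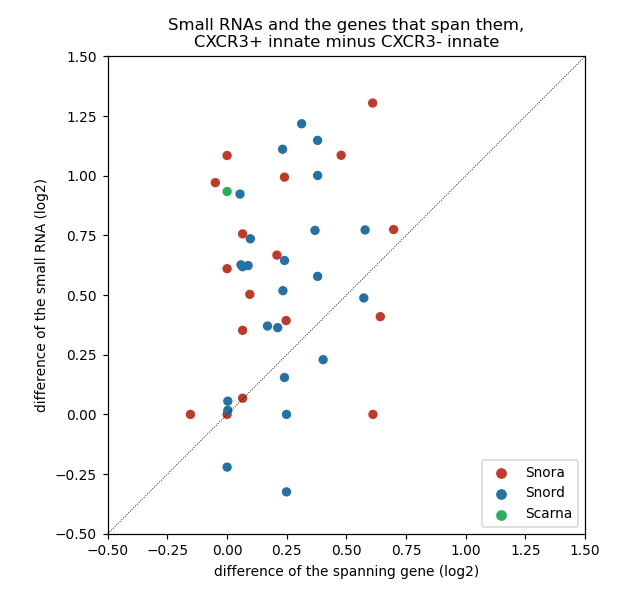
Log2 difference of CXCR3+ innate minus CXCR3- innate for 42 small RNAs (vertical axis) against the RefSeq gene that spans each of them (horizontal axis), red for Snora, blue for Snord and green for Scarna genes. The dotted line marks equal differences, and 33 of the 42 points lie above it.

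MicroRNA hairpins did not share this pattern. Of 139 with values 1 was higher and 1 lower, 74 lay below 0 and the median was -0.01. Mir101c stood at 11.70 in CXCR3+, 11.08 in CXCR3- and 10.86 in naive cells, and Mir3475 at 9.22, 9.86 and 9.64. Array probes for a hairpin do not separate precursor from mature RNA. The mature sequences of both are given from RefSeq (GRCm38.p6), with the seed, bases 2 to 8, in capitals, and no seed is shared.
mmu-miR-101c (chr9:3038680-3038698, minus strand): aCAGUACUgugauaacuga
mmu-miR-3475-5p (chrX:140310949-140310970, plus strand): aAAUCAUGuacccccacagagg
mmu-miR-3475-3p (chrX:140310992-140311012, plus strand): uCUGGAGGcacaugguuugaa

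The naive array, whose values the 1.5-fold rule does not use, was then placed on the scale from the CXCR3- value (0) to the CXCR3+ value (1) of each of the 107 higher genes. The 17 higher genes of the T cell lists had a median position of -0.28, and 16 of them had a naive value nearer to the CXCR3- array. Naive values were at or below the CXCR3- value for 11 of these, among them Ccl5, Slamf7, Tbx21, Xcl1, Ly6c2 and Klrc1, and Mif was the exception nearer to the CXCR3+ array. Klra9, which had values only through the CXCR3+ array, is counted among the 17 and the 11, and its own position was -0.28. The 36 small RNAs had a median position of 1.02, 33 of them nearer to the CXCR3+ array and 20 with a naive value at or above it. The 9 ribosomal protein genes (median 0.97, 8 nearer to CXCR3+) and the 6 higher genes of the oxidative phosphorylation, proteasome and translation families (median 1.21, all 6 nearer to CXCR3+) were placed likewise. The 30 protein-coding genes in neither set were split 15 to 15. Each position uses the innate values that chose the gene, so it is a description without a test, and the T cell lists were drawn up with earlier results of all 3 arrays known.

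**Figure D5:**
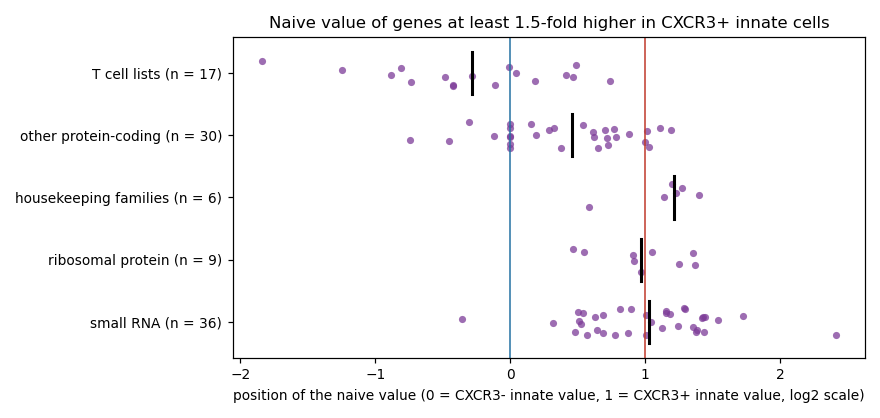
Position of the naive value for genes at least 1.5-fold higher in CXCR3+ innate cells, 1 point per gene, on a scale where 0 (blue line) is the CXCR3- innate value and 1 (red line) the CXCR3+ innate value. Black bars are medians, at -0.28 for genes of T cell lists, 0.46 for other protein-coding genes, 1.21 for the housekeeping families, 0.97 for ribosomal protein genes and 1.02 for small RNAs.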

How the data were processed

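RNA of 3 sorted populations was measured on 1 Affymetrix array each. The authors deposited log2 expression values. The submitters' processing notes name RMA and Affymetrix Expression Console. No version, annotation or genome build is given in these sources. RMA sets all arrays to a common distribution, so an overall difference in RNA amount is not kept. Many values are equal to the last digit between arrays, so further steps after RMA may have been applied. In each of the 12417 probe sets the highest of the 3 values was at least 7.00002, and probe sets low on every array were not analysed here. Array medians were 7.68 to 7.71, and the number of arrays limits the precision.

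Probe sets with 1 symbol were averaged into 10191 genes. Biotypes, spanning genes and sequences came from RefSeq GRCm38.p6, and 10148 genes had an entry. Differences were compared by size only, as 1 array a side allows no test. The members and lists were chosen with earlier results of these data known. Named genes were drawn from the sort genes, up to 20 genes furthest apart in each direction (predicted genes, clone names and sensory receptors counted, mostly unnamed), list members past 1.5-fold with up to 4 more per list, 8 small RNA and 6 ribosomal genes, up to 4 genes per family and 3 on each side of the limit; others named are described as chosen afterwards or illustrate a set. Python 3.11.15, pandas 2.3.3, R 4.3.3 and limma 3.58.1 were used, and the counting script was checked against simulated differences. Alternatives were a level filter, a 2-fold limit, 3 scalings, a linear offset of 16 and other probe set rules.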

Additional observations from a re-analysis of the deposited data

How the results depend on the processing

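The 62 other genes higher, 12 other genes lower, 36 small RNA genes higher and 9 ribosomal protein genes higher were recomputed under each alternative. A 2-fold limit left 4, 1, 12 and 0. The other genes lower numbered 7 with a level filter at the array median, 7 with a linear offset of 16 and 19 after quantile normalization. The ribosomal protein genes higher numbered 4 after quantile normalization and 14 when the first of several symbols was added. The remaining counts were within 1.5 times. Quantile normalization kept 97 of the 120 genes among 105 calls, 80.0% of them higher, and shifted the median of all genes by -0.0069; cyclic loess kept 110 and centring 116. No named gene past the limit changed direction under the 5 alternatives run on single genes. All list medians moved by less than 0.1, and those of the JAK-STAT, T cell receptor, Gimap and glycolysis lists, which lie near 0, changed sign under quantile normalization. Arsb, Cd52 and Psenen, at the edge, dropped below the limit under several scalings, and Fasl, Itgb1, Abca3, Cnn3 and Cpm did with the offset. Taking the probe set with the highest mean moved Myb to -0.99, Slamf6 to -0.67 and Chsy1 to 0.98. No paired analysis was possible because each group has 1 array, and for the same reason no array could be left out. Small differences in dim genes are limited by signal over background.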

Other observations

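Probe sets that carry several gene symbols were left out of the counts above. Of 1108 such probe sets 31 were at least 1.5-fold higher (2.80%) and 3 lower (0.271%), against 1.22% and 0.151% of the 10576 with 1 symbol. Of 733 without a symbol 5 were higher and 3 lower. The 3 lower probe sets with several symbols were that of immunoglobulin kappa segments, 1 shared by Tgtp1 and Tgtp2 (-0.70) and 1 shared by Mir5133 and Glce (-0.60).

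Whether probe sets of a gene moved together could be read for 273 genes. Their differences within a gene spanned a median of 0.11, and for 17 genes the span was larger than the 1.5-fold limit. Atp5e, Chsy1, Myb and Slamf6 were named genes with 1 probe set beyond the limit and another within it, so their averages lay within it.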
